A study of Mus musculus with 19 samples.

Results

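B-1 and marginal zone B cells are the innate-like B cells of the mouse, and 10 genes that mark or shape them were followed through B lineage cells sorted from immunized mice. The genes were Bhlhe41, Zbtb32, Cd9, Plscr1, Spn and Il5ra, which are associated mainly with B-1 cells, and Cd1d1, Notch2, Dtx1 and S1pr3, which are associated mainly with marginal zone cells. They were chosen by name, with earlier results of these data known. All 10 stood in each of the 4 deposited tables, among 17939 genes in the germinal centre (GC) table and 19397 in the others. Spleens and bone marrow came from mice given sheep red blood cells, a particulate antigen, and were taken on day 28. The mice were labelled wild type or Pik3cg knockout, and Pik3cg encodes the catalytic subunit p110γ of phosphoinositide 3-kinase. The series design names 3 wild-type and 4 knockout mice.

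The 19 libraries formed 6 groups. Splenic GC B cells, sorted as CD95+ and GL7+, gave 4 libraries labelled knockout and 3 labelled wild type. Splenic naive B cells, sorted as CD3-, B220+ and IgD+, gave 3 libraries labelled knockout and 3 labelled wild type. Antibody-secreting cells (ASC), sorted as CD138+, gave 3 libraries from spleen and 3 from bone marrow, all labelled wild type. In the naive and ASC tables, the genotype line reads HET over 9 columns whose samples are labelled wild type, and the labels were followed. Strain, age and sex, and how the Pik3cg allele was made, were not given in the sources used here, nor whether a library came from 1 mouse. The p-values therefore measure the spread between these libraries.

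B-1 cells seed the body cavities and spleen early in life, renew themselves, and make much of the natural IgM without T cell help. Marginal zone cells line the splenic sinus, where Notch2 signalling is needed for their development, and respond fast to blood-borne antigen. Both kinds carry little surface IgD, while follicular B cells carry CD23 (Fcer2a) and much IgD. In B-1a cells certain pairs of germline variable genes recur, above all Ighv11-2 with 1 kappa gene of the Igkv14 family, here called by its identifier ENSMUSG00000094345, which together bind phosphatidylcholine.

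The germline exons of that pair are shown because their transcripts differed more between the GC groups than any of the 10 genes did. Each is written 5′ to 3′ on the coding strand from GENCODE M21 on mm10, with the codons after the conserved cysteine in capitals, where the germline part of the third complementarity-determining region begins. Ighv11-2 lies on the minus strand at chr12:114048241-114048540 and ENSMUSG00000094345 on the plus strand at chr6:67896345-67896642.
Ighv11-2: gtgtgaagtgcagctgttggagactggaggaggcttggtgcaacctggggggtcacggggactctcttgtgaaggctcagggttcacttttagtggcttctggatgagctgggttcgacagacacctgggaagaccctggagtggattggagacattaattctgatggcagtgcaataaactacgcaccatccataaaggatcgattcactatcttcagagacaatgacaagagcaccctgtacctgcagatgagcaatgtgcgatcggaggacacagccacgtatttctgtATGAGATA
ENSMUSG00000094345: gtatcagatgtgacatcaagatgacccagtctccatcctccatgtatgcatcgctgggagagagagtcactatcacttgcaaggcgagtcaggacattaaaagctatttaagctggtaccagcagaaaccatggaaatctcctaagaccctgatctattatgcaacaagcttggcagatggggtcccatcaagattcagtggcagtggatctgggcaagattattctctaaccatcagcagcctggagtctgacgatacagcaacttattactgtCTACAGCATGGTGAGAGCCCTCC

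Values are counts per 1000000 assigned reads (CPM), over depths of 10.2 to 21.6 M reads a library (M, 1000000), and a difference was called when limma gave a Benjamini-Hochberg adjusted p under 0.05 over all tested genes. Pik3cg itself ran from 6.55 to 66.0 CPM in GC labelled knockout and from 19.4 to 56.5 CPM in GC labelled wild type, so its level does not check the labels. The GC libraries labelled wild type were low in GC marker transcripts other than Fas. The 7 GC markers summed to 245.6 to 287 CPM there, 2214 to 3044 CPM in GC labelled knockout and 55.3 to 96.0 CPM in naive libraries, and 6 of the 7 were called higher in labelled knockout. Rgs13 was listed at 0 in all 3, against 725 to 1294 CPM, and Bcl6, the master regulator of GC cells, was at 0.408 to 1.62 CPM, below the naive range of 2.40 to 12.1 CPM. Whether these 3 libraries held GC B cells is therefore uncertain, so in every GC comparison given here the labelled genotype and the kind of cell sorted cannot be told apart. Fas, which encodes CD95, was at 197 to 226 CPM in GC labelled wild type and 210 to 285 CPM in GC labelled knockout. It was at 5.64 to 14.8 CPM in naive libraries. In each GC library labelled wild type, Fas made up most of the GC marker sum. The 10 T cell markers summed to 983 to 1969 CPM in GC labelled knockout and 64.2 to 109 CPM in GC labelled wild type. The 9 monocyte and macrophage markers summed to 141 to 1625 and 77.1 to 202 CPM. The third GC library labelled wild type had 159 CPM of the Y-linked Ddx3y and no Xist, unlike the other 6 GC libraries, and the first labelled knockout had the most erythroid transcripts (2977 CPM summed over 6 markers). In bulk libraries fewer cells of a type and less RNA per cell cannot be told apart.

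Several innate-like genes differed between the GC groups, and none passed the test between the naive groups. In the GC libraries labelled wild type, Il5ra, Plscr1 and Cd9 were higher than in those labelled knockout, while Dtx1 was lower, and each of these passed the test. Of the 10 members 8 were abundant enough to test (a mean of at least 10 CPM), and 4 of the 8 were called, 1 higher and 3 lower in labelled knockout. Over all 8522 genes tested 13.6% were called, 8.54% higher and 5.09% lower. The median log2 fold change of the 8 members was −1.36, against 0.03 over all genes tested. All log2 fold changes here are labelled knockout over labelled wild type on log2(CPM + 1). The groups did not overlap for 6 of the 8 tested members, 5 lower and 1 higher, where 27.4% of all tested genes did not overlap, 11.7% lower and 15.6% higher. Because the members were chosen with earlier results of these data known, these shares are description and not an independent test of the list.

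**Figure D1:**
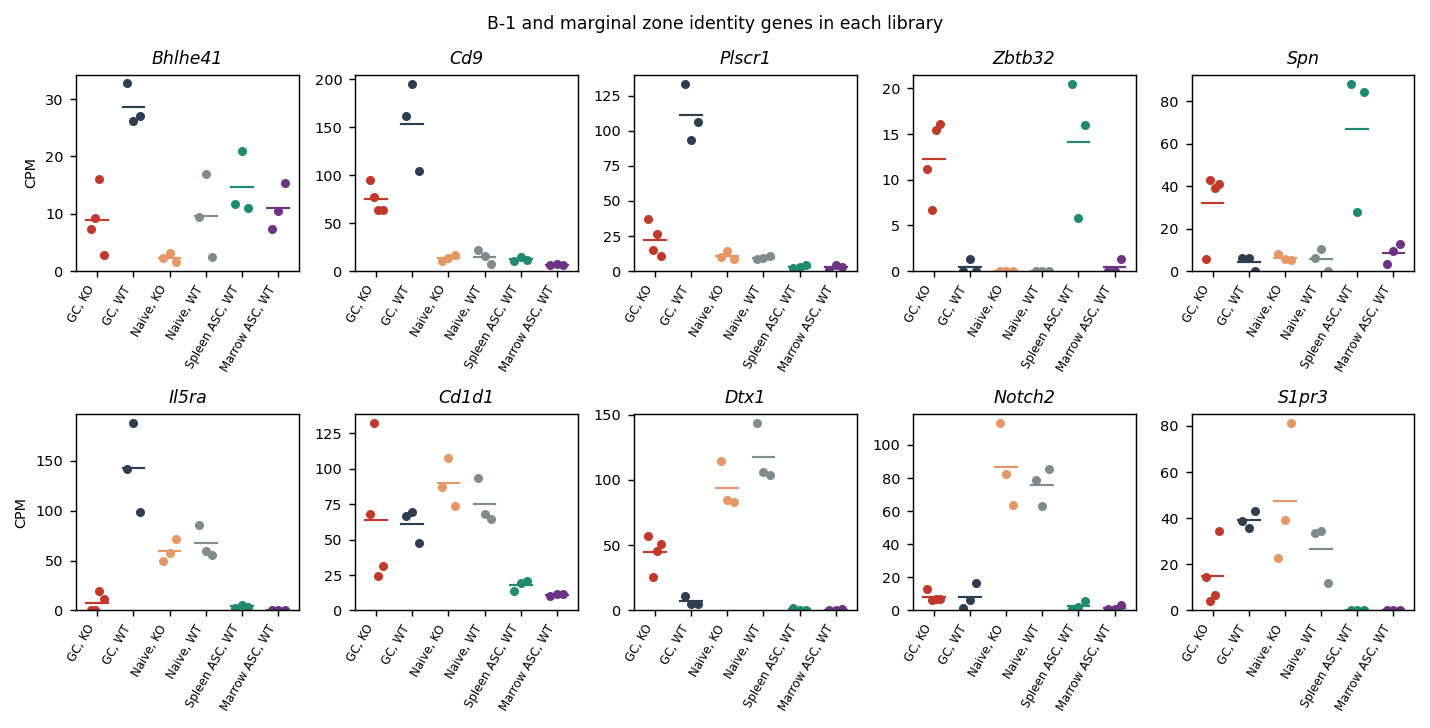
CPM (vertical axis, linear, each panel on its own scale from 0) of each of the 10 genes in every library, as points, with the group mean as a line; GC, germinal centre; ASC, antibody-secreting cells; KO and WT, labelled knockout and labelled wild type. Bhlhe41, Cd9, Plscr1 and Il5ra are highest in GC WT, Dtx1 and Notch2 are highest in the naive groups, and Spn and Zbtb32 are high in GC KO and spleen ASC.

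Bhlhe41, also called DEC2, is a basic helix-loop-helix repressor needed for B-1a cells, and lies at chr6:145858243-145865558 on the minus strand. It was at 7.30, 9.32, 16.1 and 2.73 CPM in GC labelled knockout, and GC labelled wild type had 32.7, 26.1 and 27.0 CPM. Every library labelled wild type lay above every library labelled knockout. The log2 fold change was −1.78 (SE 0.66, 95% interval −3.26 to −0.29) and did not pass (limma adjusted p = 0.112). None of 17 alternative fits called it (limma adjusted p = 0.0705 to 0.306). In naive B cells Bhlhe41 was at 2.25, 3.13 and 1.57 CPM in labelled knockout and at 9.42, 17.0 and 2.55 CPM in labelled wild type. Those ranges overlapped, and the mean of all 6 was below the minimum for testing. The gene shares 1280 exonic bases with Gm43909 on the opposite strand, and the strand setting of the counting was not given in the sources used here.

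Bhlhe40, the close paralogue of Bhlhe41 and also a B-1 regulator, was named after its values were seen. It was at 56.8, 12.1, 16.0 and 26.5 CPM in GC labelled knockout, and GC labelled wild type had 92.6, 86.7 and 93.3 CPM. The libraries did not overlap and Bhlhe40 passed (−1.91 on the log2 scale, SE 0.50, limma adjusted p = 0.0361). In naive B cells it stood at 59.9 to 101 CPM, much like the GC libraries labelled wild type. It lost the call without any 1 of labelled-knockout libraries 2, 3 and 4 or of the 3 labelled wild type (limma adjusted p = 0.0529 to 0.117), and with the replicate number as a block (0.0595).

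Zbtb32 is a zinc finger repressor that restrains memory and B-1 responses, and is on chr7:30589681-30598909, minus strand. It was at 11.2, 6.65, 15.4 and 16.1 CPM in the GC libraries labelled knockout. In those labelled wild type it was listed at 0, at 1.35 CPM and at 0. The groups did not overlap, but the mean was under the minimum for testing. With the minimum lowered to a mean of 1 CPM, the log2 fold change was 3.26 (SE 0.70, limma adjusted p = 0.0232). It was listed at 0 in all 6 naive libraries. Spleen ASC had 20.5, 5.79 and 16.0 CPM, and bone marrow ASC 0, 0 and 1.31 CPM. Among the GC libraries Zbtb32 was thus higher in the group where Bhlhe41 was lower.

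Cd9 encodes a tetraspanin found on B-1 and marginal zone cells and on plasma cells, at chr6:125460266-125494791 on the minus strand. It was at 95.04, 77.3, 63.4 and 63.5 CPM in GC labelled knockout and at 162, 195 and 104 CPM in GC labelled wild type. All 3 libraries labelled wild type were above all 4 labelled knockout. The log2 fold change was −1.003 (SE 0.27, 95% interval −1.62 to −0.38, limma adjusted p = 0.0419). This call was the least steady of the 4: it was kept in 8 of 17 alternatives, and lost without labelled-knockout library 2, 3 or 4 or labelled-wild-type library 1 or 2 (limma adjusted p = 0.0627 to 0.179). Naive libraries had 7.81 to 21.9 CPM in either group, and ASC had 6.403 to 15.1 CPM. Cd9 was therefore above the naive range in all 7 GC libraries. It shares 218 exonic bases with Gm26728 on the opposite strand.

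Tetraspanins act in webs with one another and with integrins. Of 7 tested partners, 3 fell in labelled knockout (Cd81, Cd53 and Cd82) and 1 rose (Itgb1), with a median log2 fold change of −1.43. Cd81, a widely expressed tetraspanin, was at 476 to 846 CPM in labelled knockout and 1576 to 1619 CPM in labelled wild type (−1.45 on the log2 scale, SE 0.20, limma adjusted p = 0.00196). Cd53 averaged 1090.5 CPM ± 141 (SD, n = 4) and 2968 CPM ± 597 (SD, n = 3). Cd82 averaged 124.5 CPM ± 59 and 347 CPM ± 62, and lost its call without labelled-wild-type library 1 or 2 (limma adjusted p = 0.0630 and 0.0569). The integrin chain Itgb1 moved the other way, at 139 CPM ± 55 and 44.8 CPM ± 12.8 (limma adjusted p = 0.0351, and 0.0551 to 0.133 without any 1 of 6 libraries, all but labelled-knockout library 3, and 0.0621 with the replicate block).

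Plscr1, phospholipid scramblase 1, is an interferon-inducible gene that marks B-1 cells, at chr9:92249750-92272278 on the plus strand. It was at 36.8, 15.0, 26.2 and 10.8 CPM in GC labelled knockout and at 133, 93.1 and 106 CPM in GC labelled wild type. The lowest library labelled wild type was above the highest labelled knockout. Its log2 fold change was −2.40 (SE 0.45, 95% interval −3.41 to −1.39, limma adjusted p = 0.00847). Plscr1 was called in all 17 alternatives (limma adjusted p = 0.00491 to 0.0457). Naive libraries had 8.31 to 14.2 CPM and ASC 0.873 to 4.22 CPM, so the GC libraries labelled wild type stood alone above all others.

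The other interferon-stimulated genes did not share its direction. Of 11 tested, 6 rose in labelled knockout and none fell, with a median log2 fold change of 2.48. The 14 listed genes summed to 522 to 953 CPM in GC labelled knockout and 228 to 254 CPM in GC labelled wild type. Their sum in naive libraries was 492 to 660 CPM. Ifit1, an RNA-binding antiviral protein, was at 16.7 to 85.8 CPM in labelled knockout and listed at 0 in the 3 libraries labelled wild type. Rtp4 was at 11.1 to 63.8 CPM and again listed at 0 in those 3. Irf7, the regulator of the interferon response, was at 30.2 CPM ± 9.1 (SD, n = 4) in labelled knockout and at 0 to 2.70 CPM in labelled wild type (log2 fold change 4.29, limma adjusted p = 0.00811). All 3 lost the call when labelled-knockout library 1 and labelled-wild-type library 3 were both left out (limma adjusted p = 0.0532 to 0.0805).

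Spn encodes CD43, the sialomucin used to gate B-1 cells and also carried by plasma cells, T cells and myeloid cells, at chr7:127132232-127137823 on the minus strand. In GC labelled knockout it was at 5.92, 43.0, 39.2 and 40.9 CPM, and in GC labelled wild type at 6.20, 6.09 and 0.153 CPM. Of the 4 libraries labelled knockout 3 were high, and the first lay among those labelled wild type. The log2 fold change was 2.78 (SE 0.98, 95% interval 0.58 to 4.99) and did not pass (limma adjusted p = 0.0962). Without labelled-knockout library 1 it was 3.43 (limma adjusted p = 0.0405). Naive libraries had 0 to 10.5 CPM. Spleen ASC had the highest values, at 88.1, 27.8 and 84.2 CPM, and bone marrow ASC had 3.20, 9.48 and 12.6 CPM. The T cell marker sums given above were higher in each library labelled knockout than in any labelled wild type, and their part in the Spn values was not tested.

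Il5ra, the α chain of the interleukin-5 receptor on B-1 cells, eosinophils and some plasma cells, lies at chr6:106710357-106749037 on the minus strand. It was at 0.115, 0.0555, 19.3 and 12.0 CPM in GC labelled knockout and at 142, 188 and 98.9 CPM in GC labelled wild type. The libraries labelled knockout fell into 2 near 0 and 2 above 10 CPM, all far below those labelled wild type. Il5ra passed, with a log2 fold change of −5.05 (SE 1.11, 95% interval −7.56 to −2.55, limma adjusted p = 0.0170). The call was lost without any 1 of the 3 libraries labelled wild type (limma adjusted p = 0.0584 to 0.0857), with the direction kept. It was also lost with a pseudocount of 0.1 (limma adjusted p = 0.0577). The same held without both labelled-knockout library 1 and labelled-wild-type library 3 (limma adjusted p = 0.0959). Naive libraries had 49.2, 58.1 and 72.1 CPM in labelled knockout and 86.0, 60.2 and 55.9 CPM in labelled wild type, between the GC groups. Spleen ASC had 2.97 to 5.11 CPM and bone marrow ASC were at 0, 0.243 and 0 CPM. Summed markers of eosinophils and basophils, which also carry the receptor, were at 10.8 to 17.2 CPM in GC labelled wild type and 0.425 to 92.3 CPM in GC labelled knockout.

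Interleukin-5 signals through the shared β chain Csf2rb, Jak2 and Stat5 to targets such as Cish. Of 7 tested genes of that pathway 2 were lower and none higher in labelled knockout, and the median log2 fold change was −2.15. Cish, a feedback inhibitor induced by Stat5, was listed at 0 in all 4 GC libraries labelled knockout and was at 80.6, 43.0 and 89.0 CPM in those labelled wild type. It was at 0 to 6.97 CPM in naive libraries. Stat5a was at 4.72, 22.1, 9.16 and 26.1 CPM and at 65.0, 53.6 and 62.6 CPM (−2.15 on the log2 scale, SE 0.60, limma adjusted p = 0.0455). The Stat5a call was lost without labelled-knockout library 1 or 3 or any 1 labelled wild type (limma adjusted p = 0.0586 to 0.143), and with the replicate block (0.0523). Csf2rb, named after its values were seen, was at 42.3, 22.8, 3.76 and 2.52 CPM and at 45.2, 58.5 and 71.0 CPM. It did not pass (limma adjusted p = 0.117, and 0.0466 without labelled-knockout library 1), although the groups did not overlap.

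Promoter sequence is shown for 3 members that were lower in every GC library labelled knockout than in every one labelled wild type. The windows are RefSeq promoters of GRCm38.p6 on the minus strand, cut to the bases upstream of the GENCODE gene, at chr6:106749038-106749287 for Il5ra, chr6:125494792-125495010 for Cd9 and chr6:145865559-145865670 for Bhlhe41. Capitals mark the motifs found.
Il5ra: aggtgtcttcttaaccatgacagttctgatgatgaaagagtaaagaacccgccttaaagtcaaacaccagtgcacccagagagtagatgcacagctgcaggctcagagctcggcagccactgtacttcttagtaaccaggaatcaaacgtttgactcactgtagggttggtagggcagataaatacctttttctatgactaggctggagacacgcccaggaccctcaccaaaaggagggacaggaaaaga
Cd9: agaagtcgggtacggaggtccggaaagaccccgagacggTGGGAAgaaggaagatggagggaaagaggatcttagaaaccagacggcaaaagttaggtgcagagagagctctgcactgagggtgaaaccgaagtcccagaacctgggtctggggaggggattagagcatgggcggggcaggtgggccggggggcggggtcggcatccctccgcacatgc
Bhlhe41: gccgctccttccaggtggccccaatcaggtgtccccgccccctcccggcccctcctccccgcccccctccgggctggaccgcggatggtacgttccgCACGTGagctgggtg
Motifs were searched on both strands in the 250 bases upstream of the start of the 9 members with a RefSeq promoter. The E-box CACGTG, the kind of site basic helix-loop-helix repressors bind, was found in Bhlhe41 alone of the 9, and 6.02% of 32851 promoters hold one. TGGGAA, the core bound by the Notch effector RBPJ, was found in Cd9 alone of the 9, and 21.6% of promoters hold one. The octamer ATTTGCAT was in none of the 9 and is in 1.60% of promoters.

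Cd1d1, which presents lipids and is high on marginal zone cells, lies at chr3:86995834-86999441 on the minus strand. It was at 68.3, 133, 24.0 and 31.7 CPM in GC labelled knockout and 66.4, 69.7 and 47.3 CPM in GC labelled wild type. The ranges overlapped, and Cd1d1 did not pass (−0.23 on the log2 scale, 95% interval −1.47 to 1.02, limma adjusted p = 0.8293). Naive libraries had 64.7 to 108 CPM and ASC 10.3 to 20.7 CPM. Cd1d2, a near-identical copy with which reads may be shared, was at 0 to 5.97 CPM over all 19 libraries.

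Notch2, the receptor that drives marginal zone fate, spans chr3:98013527-98150361 on the plus strand. Its GC values were 12.8, 6.04, 7.22 and 6.67 CPM in labelled knockout and 1.57, 6.34 and 16.8 CPM in labelled wild type. They overlapped, and the mean was under the minimum for testing. Naive libraries had 113, 82.3 and 64.0 CPM in labelled knockout and 78.8, 63.2 and 85.7 CPM in labelled wild type. All 7 GC libraries and all ASC (0.582 to 5.91 CPM) lay below all 6 naive ones.

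Dtx1, a Notch-induced ubiquitin ligase used as a readout of Notch2 signalling in marginal zone cells, lies at chr5:120680202-120711927 on the minus strand. It was at 57.0, 25.6, 45.8 and 50.6 CPM in GC labelled knockout and at 11.4, 4.89 and 4.84 CPM in GC labelled wild type. The groups did not overlap. Dtx1 passed, with a log2 fold change of 2.54 (SE 0.53, 95% interval 1.33 to 3.75, limma adjusted p = 0.0141). Of the single libraries, only leaving out labelled-wild-type library 2 ended the call (2.37, limma adjusted p = 0.0555). The call was also lost without both labelled-knockout library 1 and labelled-wild-type library 3 (2.23, limma adjusted p = 0.117). Naive libraries were higher than either GC group, at 115, 84.4 and 83.4 CPM in labelled knockout and 143, 106 and 103 CPM in labelled wild type. ASC had 0 to 2.07 CPM.

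Among the other genes of the Notch2 pathway 10 were tested in the GC libraries, of which 1 fell and none rose in labelled knockout. It was Rbpj, the DNA-binding partner of Notch, at 16.8, 26.4, 25.6 and 17.9 CPM and at 66.8, 64.6 and 80.6 CPM (−1.68 on the log2 scale, SE 0.35, limma adjusted p = 0.0133). The Rbpj call was lost without any 1 of the 3 libraries labelled wild type (limma adjusted p = 0.0518 to 0.0655), and with the replicate block (0.0620). Hes1, another Notch target, was too low to test, at 6.20 to 12.1 CPM in labelled knockout and 0.648 to 4.28 CPM in labelled wild type. The E protein inhibitors Id2 and Id3, which favour B-1 and marginal zone fates, were 2 of 5 tested E protein and Id genes that rose, with none falling. Id3 averaged 138 CPM ± 45 (SD, n = 4) in labelled knockout and 21.2 CPM ± 9.1 (SD, n = 3) in labelled wild type (log2 fold change 2.67, limma adjusted p = 0.00263). In naive libraries Id3 was at 125 to 178 CPM, inside the range of GC labelled knockout (94.8 to 188 CPM). Id2 averaged 162 CPM ± 66 and 34.3 CPM ± 3.5.

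S1pr3, a sphingosine 1-phosphate receptor of marginal zone cells, lies at chr13:51408639-51422797 on the plus strand. It was at 14.6, 4.10, 6.68 and 34.6 CPM in GC labelled knockout and at 39.0, 35.6 and 43.3 CPM in GC labelled wild type. The groups came close at 34.6 and 35.6 CPM but did not overlap. The log2 fold change of −1.72 (SE 0.70, 95% interval −3.30 to −0.15) did not pass (limma adjusted p = 0.142). Without labelled-knockout library 4, the highest of its group, it was −2.24 (limma adjusted p = 0.0479). Naive libraries had 22.6, 39.1 and 81.2 CPM in labelled knockout and 33.6, 34.4 and 12.0 CPM in labelled wild type. It was listed at 0 in 5 of 6 ASC libraries. Of 6 tested genes of the same lipid's pathway, 2 rose and 1 fell in labelled knockout. S1pr2, which holds cells in the follicle centre, was at 32.6 to 66.0 CPM and listed at 0 in labelled wild type, and its effector Gna13 averaged 179 CPM ± 46 and 81.7 CPM ± 18.2. The Gna13 call was lost without labelled-knockout library 3 or any 1 labelled wild type (limma adjusted p = 0.0505 to 0.102). Sgpl1, the lyase that breaks the lipid down, was at 22.7, 6.49, 22.3 and 15.1 CPM and at 230, 160 and 118 CPM (−3.35 on the log2 scale, SE 0.48, limma adjusted p = 0.00243).

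**Figure D2:**
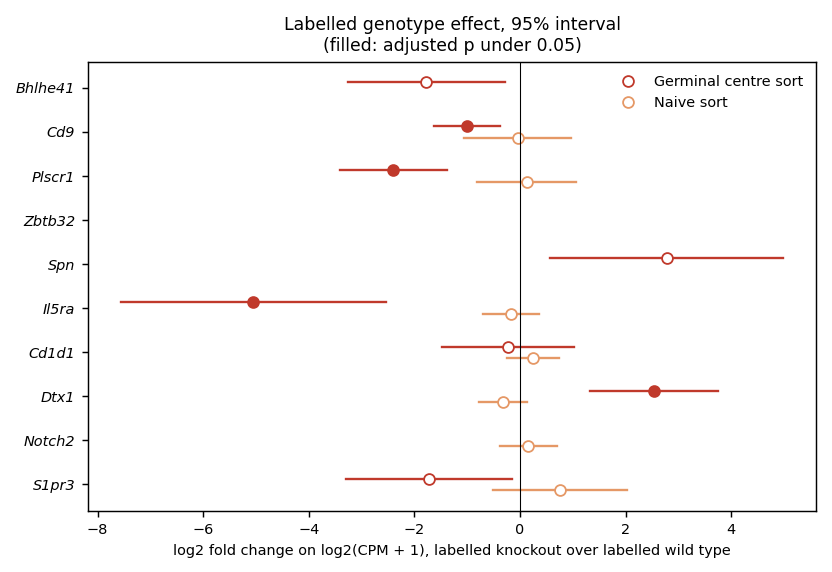
Log2 fold change on log2(CPM + 1), labelled knockout relative to labelled wild type (horizontal axis) for each gene, with its 95% interval from limma, in the germinal centre sort (red) and the naive sort (orange); filled points have an adjusted p under 0.05, and genes below a mean of 10 CPM have no point. Il5ra at −5.05, Plscr1 at −2.40, Cd9 at −1.003 and Dtx1 at 2.54 are filled, and every naive interval includes 0.

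In naive B cells, whose labels the Pik3cg level did not check either, no member differed past the threshold. Of the 10 members 7 were tested, 0 were called and 0 had groups that did not overlap. Over all 8832 genes limma called 0 (0%), with 587 at an unadjusted p under 0.05, and 13.6% had groups that did not overlap. The median log2 fold change was 0.13 for the 7 members and −0.01 for all genes tested. The widest interval was that of S1pr3, at 0.76 (95% interval −0.50 to 2.03), and the narrowest that of Dtx1, at −0.32 (−0.77 to 0.13). Il5ra was at −0.16 (−0.69 to 0.37), Plscr1 at 0.13 (−0.81 to 1.06) and Cd9 at −0.04 (−1.05 to 0.96). Changes of the size fitted in the GC libraries for these 3 lay outside the naive interval for Il5ra and Plscr1 and inside it for Cd9.

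The difference between the GC and naive effects was tested directly over 8871 genes, of which 7.83% passed. Of the 9 members tested 3 passed: Dtx1 (2.86, SE 0.51, limma adjusted p = 0.00406), Plscr1 (−2.53, SE 0.61, limma adjusted p = 0.0241) and Il5ra (−4.89, SE 1.32, limma adjusted p = 0.0400). Dtx1 passed in all 22 alternatives and Plscr1 in 16. Il5ra passed in 9, and lost the call without any 1 of the 6 naive libraries or of the 3 GC libraries labelled wild type (limma adjusted p = 0.0668 to 0.0945). Plscr1 lost it without GC labelled-wild-type library 1, naive labelled-knockout library 1 or 2, or naive labelled-wild-type library 1 or 2 (limma adjusted p = 0.0515 to 0.0665). The Cd9 effect was called in the GC libraries alone, and its difference did not pass (−0.96, 95% interval −2.07 to 0.15, limma adjusted p = 0.317).

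The variable gene pair separated the GC groups further than any member did. Ighv11-2 was at 4.43, 5.93, 11.0 and 0 CPM in labelled knockout and at 415, 1456 and 290 CPM in labelled wild type (−6.93 on the log2 scale, SE 0.87, limma adjusted p = 0.00140). ENSMUSG00000094345 was at 0, 3.94, 0 and 1.58 CPM and at 408, 1593 and 460 CPM (−8.47 on the log2 scale, SE 0.75, limma adjusted p = 0.000287). Both were highest in the second library labelled wild type. As shares that do not depend on how much immunoglobulin RNA a library held, Ighv11-2 made up 14.5%, 24.3% and 5.31% of all Ighv CPM in labelled wild type, and 0.634%, 0.263%, 0.455% and 0% in labelled knockout. It ranked 1, 1 and 3 among the Ighv genes of the libraries labelled wild type. ENSMUSG00000094345 made up 3.20%, 6.21% and 1.77% of all Igkv CPM in them and at most 0.0357% in labelled knockout.

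The naive libraries had 0.0510% to 0.240% of Ighv CPM as Ighv11-2 and 0.248% to 0.575% of Igkv CPM as ENSMUSG00000094345, with overlapping genotype groups. Spleen ASC had 0.667%, 2.29% and 0.129% for Ighv11-2, and 0.669%, 1.87% and 0.585% for ENSMUSG00000094345. Bone marrow ASC had 0.947%, 1.33% and 0.171%, and 0.890%, 2.08% and 0.784%. In both ASC groups, the library highest for one of the pair was highest for the other. Variable genes are a multigene family and the tables do not pair heavy with light chains, so these values do not show the pair within single cells, nor whether 1 clone or many gave them. Ighv12-3, another B-1a variable gene, was at most 0.948 CPM in any GC or naive library, and Igkv4-91, its usual partner, overlapped between the GC groups (17.1 to 695 and 62.1 to 493 CPM).

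**Figure D3:**
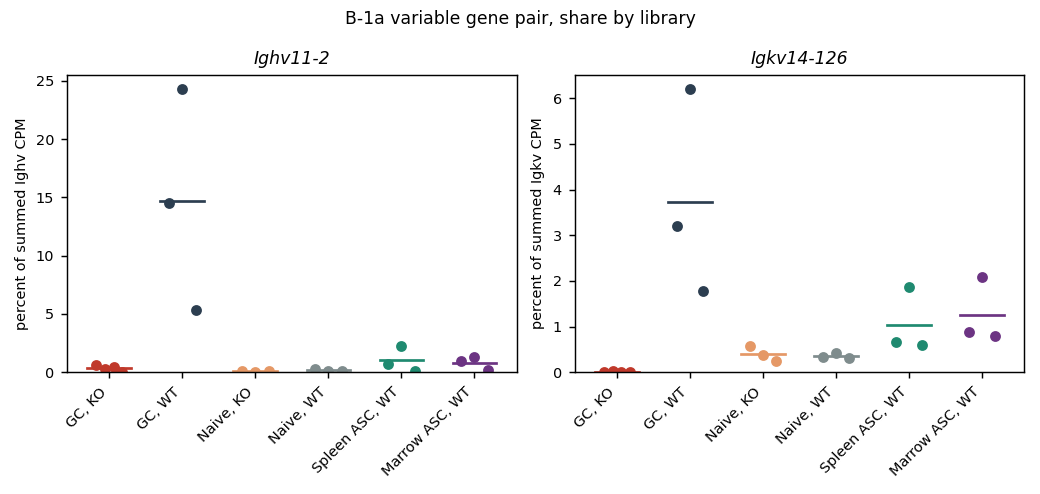
Share of Ighv11-2 in the summed CPM of all Ighv genes (left) and of its light chain partner ENSMUSG00000094345, titled there by its symbol, in that of all Igkv genes (right), in percent on axes from 0, for each library (points) with the group mean (line). The 3 germinal centre libraries labelled wild type, at 5.31% to 24.3% and 1.77% to 6.21%, include the highest values of both panels.

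Wider lists did not move as one. Of 11 tested genes of the B-1 list, which leaves out the members, 4 were higher and 2 lower in GC labelled knockout, with a median log2 fold change of 2.08. The higher ones were Nt5e, Anxa2, Sostdc1 and Itgb1. The ectonucleotidase Nt5e (CD73), also a marker of GC-derived memory cells, was at 51.6 to 149 CPM in labelled knockout and 0 to 1.298 CPM in labelled wild type. Anxa2, an annexin, averaged 404 CPM ± 57 (SD, n = 4) and 4.66 CPM ± 1.93 (SD, n = 3), and Sostdc1 was at 26.1 to 110 CPM and listed at 0. The lower ones were Bhlhe40 and Tmem154, the latter at 73.4, 12.9, 11.7 and 31.9 CPM and at 216, 198.3 and 246.2 CPM (−3.10 on the log2 scale, SE 0.58, limma adjusted p = 0.00828). Cd5, the surface marker that separates B-1a from B-1b cells and is carried by T cells too, was at 23.9, 93.7, 0 and 30.6 CPM in labelled knockout and at 4.997, 0.0998 and 4.08 CPM in labelled wild type, and did not pass (limma adjusted p = 0.344, and 0.0378 without labelled-knockout library 3).

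Of 11 tested genes of the marginal zone list, 3 were higher and 1 lower in labelled knockout, with a median of 0.07. Cr2, the complement receptor CD21, was at 189, 203, 154 and 293.9 CPM in labelled knockout and 9.21, 23.6 and 11.1 CPM in labelled wild type (3.83 on the log2 scale, SE 0.37, limma adjusted p = 0.000479), and at 433 to 600 CPM in naive libraries. Ebf1 and Cd24a were the other 2 higher genes, at 303 CPM ± 56 and 192 CPM ± 24 in labelled knockout and 89.3 CPM ± 3.5 and 56.5 CPM ± 5.9 in labelled wild type. Ighm, the IgM heavy chain, was at 5634, 5083, 6415 and 10625 CPM and at 18131, 39048 and 35288 CPM (−2.14 on the log2 scale, SE 0.32, limma adjusted p = 0.00291). The Ighm call was lost without both labelled-knockout library 1 and labelled-wild-type library 3 (limma adjusted p = 0.0503). Fcer2a, the follicular marker CD23 that B-1 and marginal zone cells carry little of, was at 43.0 to 82.1 CPM in labelled knockout and 1525 to 2439 CPM in labelled wild type. Its naive values were 1064 to 1388 CPM, so the libraries rich in Il5ra and Ighv11-2 were also the richest in Fcer2a and the poorest B cells in Cr2. Xbp1, the secretory regulator, was at 356 to 541 CPM and 2459 to 3742 CPM in the same groups, and ASC had 3616 to 4828 CPM. The 7 plasma cell markers, Xbp1 among them, summed to 3762 to 11788 CPM in GC labelled knockout and 6741 to 10986 CPM in GC labelled wild type. In ASC they summed to 111543 to 159420 CPM. Of the 7, 4 were called lower and none higher in labelled knockout.

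**Figure D4:**
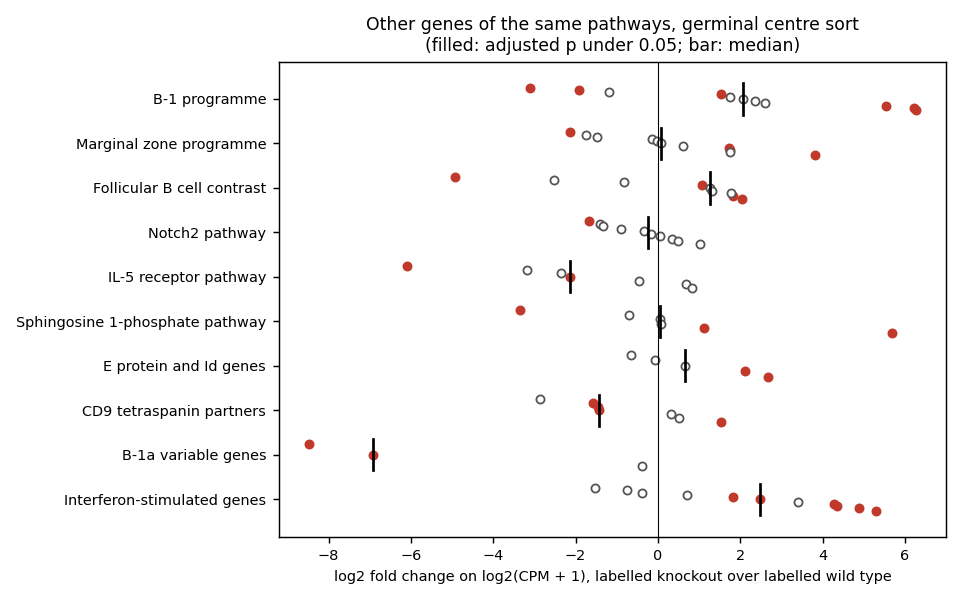
Log2 fold change on log2(CPM + 1), labelled knockout relative to labelled wild type (horizontal axis) of every tested gene of 10 lists in the germinal centre sort; filled points have a limma adjusted p under 0.05 and the bar is the list's median. The B-1 list has 4 filled points above 0 and 2 below, the 11 interferon-stimulated genes have 6 above and none below, and the lowest 2 points of all are ENSMUSG00000094345 at −8.47 and Ighv11-2 at −6.93.

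Levels over the 6 groups stand in 4 separately made tables and were described only. Bhlhe41, Cd9, Plscr1 and Il5ra had their highest mean in GC labelled wild type, and for each the range there lay above that of the next group. For Bhlhe41 this order depended on the share of immunoglobulin RNA, which was 61.5% to 70.2% of CPM in ASC, 6.78% to 13.2% in GC labelled wild type and at most 7.37% elsewhere. With CPM taken over the genes outside immunoglobulin, a scale chosen after that share was seen, Bhlhe41 averaged 40.6 ± 18.6 in spleen ASC, 33.9 ± 10.7 in bone marrow ASC and 32.1 ± 2.7 in GC labelled wild type (SD, n = 3 each), with overlapping ranges. Il5ra still averaged 161 ± 52 in GC labelled wild type and 11.1 ± 3.7 in spleen ASC on that scale, and Cd9 173 ± 52 and 34.3 ± 9.1. Spn averaged 178 ± 83 in spleen ASC, its highest group on either scale.

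Cd1d1, Dtx1 and Notch2 had their highest means in the 2 naive groups, whose ranges overlapped each other. S1pr3 was highest in naive labelled knockout (47.6 CPM ± 30.2, SD, n = 3), whose range took in that of GC labelled wild type (39.3 CPM ± 3.8). Compared between genes per kilobase of exon, GC labelled wild type held the most of Cd9 (75.2 CPM per kb), then Plscr1 (45.1) and Il5ra (40.0), while Notch2 was at 0.763. GC labelled knockout held the most of Cd9 (36.6) and Cd1d1 (24.96), naive labelled wild type of Cd1d1 (29.3) and Dtx1 (22.3), and spleen ASC of Spn (14.3).

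The likeness of the members was taken over the 19 libraries, which differ in sort, genotype label and table. On log2(CPM + 1), Pearson's r was 0.88 for Plscr1 with Cd9, 0.84 for Dtx1 with Notch2, 0.79 for Spn with Zbtb32 and 0.01 for Il5ra with Bhlhe41. Among 10527 genes in all 4 tables, those most like Dtx1 were Cr2, Plekha2 and Cnn2 (0.98 each). Cd9 was most like Ndfip1, Trappc2l and Ms4a6c (0.97, 0.96 and 0.96), and Plscr1 most like Tpi1, Elp5 and Commd3 (0.96 each). Il5ra was most like Man1a, Arid5a and Gpatch8 (0.91, 0.91 and 0.90). Bhlhe41 had no close match, with Prdx4, Tmem176a and Alpl at 0.79, 0.78 and 0.77, and Spn had Zbtb32 itself first.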

How the data were processed

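RNA was sequenced from 19 libraries of sorted B lineage cells in 6 groups taken from the sample labels. Reads were aligned with STAR to mm10, per the submitters' processing notes. Counting tool, annotation, strand setting and filters: not given in the sources used here. The authors deposited CPM values, 1000000 a column, in 1 table per sort. In that of the GC cells a constant of 0.0001 was removed. In the others, 19 gene names turned into dates were left out, and Rps21 is at or near 0, so a gene listed at 0 there may be a failed estimate. Rps21 was at 14.3 to 26.1 CPM in the GC libraries, and whether genes listed at 0 in them are failed estimates was not tested. Of the deposited CPM, 61.4% to 67.8% of GC values and 85.2% to 88.8% of the rest came within 0.02 of a whole read (up to 1000 reads), so a count test was not used. Depth came from the worth of 1 read, and covers counting error only. No column lacked a mapped sample (0).

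Testing used limma 3.58.1 for genes averaging 10 CPM or more (trend, in R 4.3.3) on log2(CPM + 1), GC and naive each in its own table, with a fit of both for the difference. The fits were checked on simulated data. A fold change on this scale understates that of low genes. Alternatives covered pseudocount, filter, scaling, trend, robust estimation, weights, replicate block and left-out libraries. Named genes were the 10 members, up to 4 genes per list (called ones first by size, then by mean), the 3 most correlated genes per member, and Pik3cg, Fcer2a, Cr2 and Cd5. Bhlhe40, Csf2rb, Hes1, Ighv12-3, Cd1d2, Fas, Ddx3y and Xist fall outside that rule and were chosen after their values were seen. The members and the 21 lists were chosen with earlier results of these data known. Positions came from GENCODE M21, and promoters from RefSeq (GRCm38.p6), which held 9 of the 10 members.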

Additional observations from a re-analysis of the deposited data

Results flagged for a closer look

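Spn in the GC libraries labelled knockout stood out for 1 library far from the rest. Its lowest library, at 5.92 CPM, lay below the other 3 by 0.897 of the group's whole range, above the 95% critical value of Dixon's test for 4 libraries. Chance flags about 1 in 20 groups, and 10 groups were looked at. The same library had the highest monocyte and macrophage sum (1625 CPM) and the highest erythroid sum (2977 CPM) of its group, and a T cell sum of 1015 CPM among 983 to 1969 CPM. Their part in the Spn value was not tested.

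The labelled genotype effect differed between GC and naive B cells, by a test of the difference itself, for 3 members. The difference on the log2 scale, GC minus naive, was −2.53 for Plscr1, −4.89 for Il5ra and 2.86 for Dtx1. Dtx1 was higher in 4 of 4 GC libraries labelled knockout than in any labelled wild type, and Plscr1 and Il5ra were lower in 4 of 4.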

How the results depend on the processing

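Leaving out 1 library at a time changed the count of genes called in GC from 1162 to between 603 and 1134, with the lowest counts without labelled-wild-type library 1, 2 or 3 (732, 603 and 712). It was higher with sample weights (1422) and a pseudocount of 5 (1302). The count was 739 without the trend, and 432 without both labelled-knockout library 1 and labelled-wild-type library 3. The cause of these changes was not tested, and the fits with libraries left out also had fewer samples. The naive count was 0 in every alternative run, and the count for the difference ran from 481 to 942 around 695.

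No pairing of samples by replicate number was seen: same-numbered deviations correlated at 0.0787, 0.000565 and 0.00779 in GC and −0.0471, 0.0379 and −0.0336 in naive, none over 0.1. With so few libraries a group, this check cannot exclude a weak pairing. In GC, labelled-wild-type libraries 2 and 3 carry each other's number in the column headers, and the sample titles were followed throughout. Paired by header number, labelled-knockout libraries 2 and 3 gave correlations of 0.0261 and 0.00425. With the replicate block, which leaves labelled-knockout library 4 without a partner, 831 genes were called in GC, 0 in naive and 563 for the difference. Under the block Cd9 in GC (limma adjusted p = 0.0780) and the Plscr1 difference (0.0608) no longer passed, nor did Bhlhe40 (0.0595), Itgb1 (0.0621), Rbpj (0.0620) and Stat5a (0.0523) in GC. No other call on a gene named here was changed by the block. Cd1d1 in GC was 0.0020 and the Bhlhe41 difference 0.049, both reversed.

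Reversals were otherwise in values that were not called, and the cause was not tested. With sample weights, naive Cd9 was 0.044, and with a pseudocount of 5 the Notch2 difference was −0.0137. Over left-out libraries, Cd1d1 in GC ran from −0.68 to 0.13. In naive, Cd9 ran from −0.42 to 0.26, Il5ra from −0.30282 to 0.025 and Notch2 from −0.052 to 0.35. The Bhlhe41 difference ran from −0.87 to 0.296 and that of Notch2 from −0.53 to 0.87. Of 136 alternative values of the 8 members tested in GC, 115 kept direction and side of the threshold, 16 lost the call, 2 gained one and 3 reversed.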
